A study of Mus musculus with 12 samples.

Results

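Genes of heart muscle were followed in whole mouse lung across adult life: Myl4, Myl7, Nppa, Tnni3, Tnnt2, Actc1, Myh6, Sln, Ryr2 and Myl3. They were the rows of the gene table that carry these symbols, 10 of 35275 genes, taken as a measure of the heart muscle that the lung samples hold. The table covers 12 lungs of male wild-type C57Bl/6J mice from the colony of a Japanese geriatrics centre, 3 mice each at 3, 6, 12 and 24 months of age. Each library came from the minced lung of 1 mouse, kept in RNAlater and sequenced as polyA RNA, and no treatment other than age was given. The series asked how gene expression in the lung changes with age, and the 3-month mice were the common controls of each comparison here. The sources used here do not give which lobes were taken or whether the vessels at the lung root were trimmed.

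In mice, striated heart muscle does not end at the atrium: a sleeve of it runs along the pulmonary veins into the lung. Its cells contract with the atrium and use atrial forms of the contractile proteins, among them the atrial light chains Myl4 and Myl7 and the hormone gene Nppa. A piece of atrium left on the lung root carries the same transcripts, so whole lung RNA cannot tell the vein sleeve from attached atrium. In bulk samples of this kind, fewer heart muscle cells and less RNA per cell cannot be told apart either.

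All 10 genes passed the filter on low counts. The sequences just before their start sites show one thing that the choice of genes did not use. RefSeq windows (GRCm38.p6, 250 bases before to 50 after the start) were found for 9 of the 10 genes, and Sln had no entry. The CArG box, the site of serum response factor (CC, 6 bases of A or T, GG), was found in 3 of the 9 genes, Myl7, Actc1 and Myl3, and in 1.63% of the 32851 windows of all genes. The MEF2 site was in 0 of the 9 and in 3.19% of all windows. A GATA site (AGATAA or TGATAA) was in Myl7, Nppa and 1 of the 2 windows of Tnnt2, and in 18.6% of all windows. The M-CAT element CATTCC was in Myl7, Myl3, Myh6 and Tnnt2, and in 14.7% of all windows, and TATAAA was in Actc1, Myh6 and Nppa, and in 13.6%. Both strands were searched, and a match describes letters only. The 150 bases before the RefSeq start of the 3 genes with a CArG box, and of Nppa as the hormone gene without one, are printed 5′ to 3′ along the gene, with all matches in capitals.
Myl7: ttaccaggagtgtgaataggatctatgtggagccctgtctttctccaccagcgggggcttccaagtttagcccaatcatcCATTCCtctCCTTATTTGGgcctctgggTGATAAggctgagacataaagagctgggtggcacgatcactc
Actc1: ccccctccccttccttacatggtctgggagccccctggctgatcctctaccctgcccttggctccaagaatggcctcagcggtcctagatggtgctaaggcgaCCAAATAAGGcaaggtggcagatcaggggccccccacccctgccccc
Myl3: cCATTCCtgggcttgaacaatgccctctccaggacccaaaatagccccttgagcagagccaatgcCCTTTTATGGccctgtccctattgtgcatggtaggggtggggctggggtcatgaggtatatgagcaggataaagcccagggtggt
Nppa: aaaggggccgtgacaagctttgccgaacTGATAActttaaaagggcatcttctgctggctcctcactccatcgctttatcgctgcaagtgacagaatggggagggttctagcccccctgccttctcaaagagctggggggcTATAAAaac
These stretches lie at chr11:5898783-5898932 (minus strand) for Myl7, chr2:114052876-114053025 (minus) for Actc1, chr9:110763528-110763677 (plus) for Myl3 and chr4:148000572-148000721 (plus) for Nppa. In Myl7 the M-CAT element, the CArG box and the GATA site follow each other from base -70 to base -37, counted from the start site. The RefSeq start of Myl7 and Nppa is the 5′ end of the deposited gene, while that of Actc1 lies 673 bases downstream of it and that of Myl3 32 bases downstream. The TATAAA of Actc1 lies downstream of its RefSeq start and outside the printed stretch.

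The libraries held 14720869 to 21244361 reads on genes, and the 10 genes together took 0.0357% to 0.0940% of them. The 24-month libraries stood apart: their reads fell on genes of higher GC content (mean 54.1% to 55.8%, against 50.1% to 51.5% in the other 9), and their TMM scaling factors were 0.521 to 0.826, against 1.06 to 1.20. TMM is the trimmed mean of M-values, which scales libraries on the bulk of their genes. Fold changes of the 24-month mice are therefore also given after a smooth correction for GC content and gene length in each library, and on plain library totals. The median log2 change of all 16042 genes tested at 24 against 3 months was -0.29 with TMM, -1.0 with library totals and -0.01 with the correction. At 12 months library 3 had 3.12% mitochondrial reads, against 1.65% to 2.14% in the libraries of 3 and 6 months 1.95% to 1.96% in the other two of 12 months and 0.443% to 0.629% at 24 months. Lung marker genes of alveolar, club, ciliated and endothelial cells (Sftpc, Sftpb, Ager, Scgb1a1, Foxj1, Cldn5 and Pecam1) summed to 42038 to 81769 CPM (the usual counts scaled to a common library total, here on TMM library sizes) in the 12 libraries.

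Per length of transcript, Myl7 and Actc1 were the most abundant of the 10. The deposited FPKM (reads scaled to gene length and library total) of Myl7 averaged 112 over the 12 libraries (42.1 to 187) and that of Actc1 83.7 (37.0 to 144). Tnni3 followed at 53.2 (25.5 to 81.1), Myh6 at 39.8 (18.6 to 66.4), Tnnt2 at 21.9 (10.1 to 38.2), Myl4 at 21.4 (8.87 to 34.8) and Sln at 18.6 (6.52 to 30.5). Nppa at 4.49 (0.827 to 12.0), Myl3 at 4.36 (1.31 to 19.0) and Ryr2 at 0.688 were the lowest. Several neighbours in this order did not separate: Tnnt2 was above Myl4 in 6 of 12 libraries, Nppa above Myl3 in 7, Myl4 above Sln in 8 and Tnni3 above Myh6 in 9. Actc1 was above Tnni3, and Sln above Nppa, in 12 of 12.

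The atrial light chains were higher at 12 and 24 months than at 3 months. Over the 3 mice of an age Myl4 averaged 35.9 ± 13.2 CPM (SD, n = 3) at 3 months, 98.5 ± 7.46 at 12 months and 106 ± 37.1 at 24 months, and Myl7 35.0 ± 18.1, 91.4 ± 11.2 and 112 ± 51.6. Myl4 (chr11:104550663-104595753, plus strand, mm10) encodes the atrial essential light chain, which stiffens the neck of the myosin head. It was at 50.7, 31.8 and 25.2 CPM in the 3 mice of 3 months, at 69.6, 55.0 and 27.6 at 6 months, at 94.6, 93.8 and 107 at 12 months and at 128, 63.3 and 127 at 24 months. The mice of 12 and of 24 months were all above the mice of 3 months, and those of 6 months overlapped them. On plain library totals 24-month mouse 2, at 48.5 CPM, lay below 3-month mouse 1, at 58.7, so that only the 12-month mice stayed apart. Myl7 (chr11:5896637-5898782, minus strand), the atrial regulatory light chain, was at 55.7, 27.1 and 22.3 CPM at 3 months and at 60.8, 50.7 and 21.8 at 6 months. It was at 82.7, 87.3 and 104 CPM at 12 months and at 117, 58.2 and 161 at 24 months. Both ages lay above 3 months on this scale, and on library totals 24-month mouse 2 (44.6 CPM) lay below 3-month mouse 1 (64.5). Against 3 months, the edgeR quasi-likelihood log2 change of Myl4 was 1.45 ± 0.34 (SE, adjusted p = 0.0157) at 12 months and 1.56 ± 0.34 (adjusted p = 0.000598) at 24 months. That of Myl7 was 1.38 ± 0.41 (adjusted p = 0.0368) and 1.67 ± 0.41 (adjusted p = 0.00153). Once GC content and gene length were corrected for, Myl4 passed at both ages, at 1.52 (adjusted p = 0.019) for 12 months and 1.10 (adjusted p = 0.0255) for 24 months. Myl7 was then at 0.98 (adjusted p = 0.087) and 0.86 (adjusted p = 0.0672), past the threshold at neither age. On library totals the changes at 24 months were 0.80 for Myl4 (adjusted p = 0.0471) and 0.87 for Myl7 (adjusted p = 0.0547).

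Nppa (chr4:148000722-148002079, plus strand) encodes the precursor of atrial natriuretic peptide, which is released from stretched atrial muscle. It was at 2.56, 0.66 and 1.00 CPM at 3 months, 4.23, 2.52 and 0.63 at 6 months, 3.11, 9.72 and 6.07 at 12 months and 6.58, 3.41 and 9.36 at 24 months. Every mouse of 12 and 24 months was above every mouse of 3 months on TMM library sizes, whereas on library totals 24-month mouse 2 (2.62 CPM) lay below 3-month mouse 1 (2.97). Mice of 1 age differed by up to 6.74-fold, at 6 months. Its log2 change was 2.14 ± 0.61 at 12 months (edgeR adjusted p = 0.0333) and 2.16 ± 0.63 at 24 months (adjusted p = 0.00475). After the GC content and length correction it was 1.76 (adjusted p = 0.0524) and 1.13 (adjusted p = 0.117), which did not pass, and the change at 24 months was 1.37 on library totals (adjusted p = 0.0506). The antisense gene Gm13054 overlaps Nppa, held 1.1 reads a library on average, and the sources used here do not say whether the counting used strand.

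Of the thin filament genes, Tnni3 and Actc1 rose at 12 months and Tnnt2 did not pass the test at any age. Tnni3 (chr7:4518305-4524229, minus strand) encodes cardiac troponin I, the subunit that holds the filament off. It was at 46.7, 25.4 and 20.2 CPM at 3 months, 52.5, 38.5 and 25.3 at 6 months, 60.3, 65.2 and 69.6 at 12 months and 75.9, 42.6 and 66.7 at 24 months. The 12-month mice lay close together above all 3-month mice, while 24-month mouse 2 lay below 3-month mouse 1. Its log2 change was 1.08 ± 0.32 at 12 months (edgeR adjusted p = 0.0359) and 1.00 ± 0.32 at 24 months (adjusted p = 0.00864). With the correction it was 0.71 (adjusted p = 0.0955) and -0.11 (adjusted p = 0.756), so the direction at 24 months turned, and on library totals it was 0.27 at 24 months (adjusted p = 0.479). Tnni3 overlaps Dnaaf3, a gene for assembly of ciliary motors on the same strand with 287.8 reads a library on average, and the sources used here do not say how shared reads were counted.

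Actc1 (chr2:114047282-114053548, minus strand), the cardiac alpha-actin of the thin filament, averaged higher at each later age. It was at 97.2, 60.3 and 47.3 CPM at 3 months, 98.4, 88.7 and 62.9 at 6 months, 149, 142 and 126 at 12 months and 257, 167 and 314 at 24 months. The 12-month mice were all above the 3-month and 6-month mice, and on TMM library sizes the 24-month mice were above all others. On library totals 24-month mouse 2, at 128 CPM, lay below the 12-month mice (133 to 162) and still above the 3-month mice (54.5 to 112). The log2 change against 3 months was 1.02 ± 0.28 at 12 months (edgeR adjusted p = 0.0291) and 1.85 ± 0.29 at 24 months (adjusted p = 2.48e-05). With the correction it was 0.84 (adjusted p = 0.0269) and 1.34 (adjusted p = 0.000282), and with library totals 0.90 (adjusted p = 0.0513) and 1.07 (adjusted p = 0.00239). Tnnt2 (chr1:135836354-135852260, plus strand), cardiac troponin T, which ties the troponin complex to tropomyosin, behaved otherwise. It was at 88.3, 50.7 and 38.3 CPM at 3 months, 107, 69.6 and 38.4 at 6 months, 91.4, 79.2 and 94.8 at 12 months and 75.8, 43.9 and 67.9 at 24 months. The ages overlapped, although 6-month mouse 1 and 12-month mice 1 and 3 lay above the 3-month range. Its log2 change was 0.58 ± 0.35 at 12 months (edgeR adjusted p = 0.235) and 0.08 ± 0.35 at 24 months (adjusted p = 0.837), and -0.07 at 24 months with the correction and -0.66 on library totals.

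**Figure D1:**
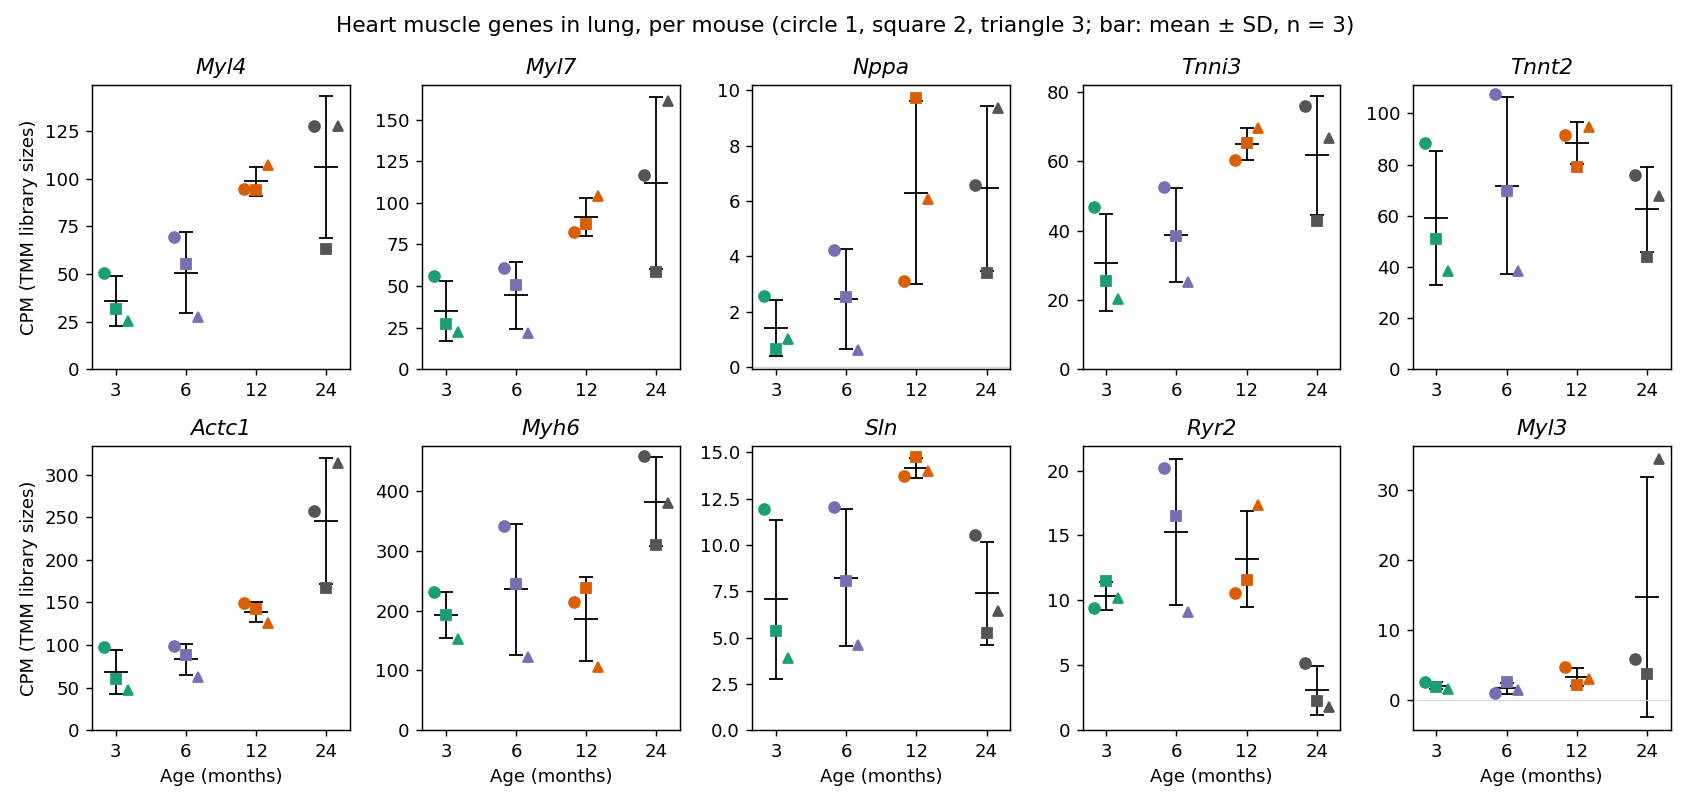
Level of each of the 10 genes in each of the 12 lungs, as CPM on TMM library sizes, by age in months, with 1 point per mouse a dash at the mean of the 3 mice of an age and bars of ± 1 SD; each panel has its own CPM axis. On this scale Actc1 separates all 24-month mice (167 to 314 CPM) from the others, which it does not on library totals, Ryr2 is lowest at 24 months (1.76 to 5.18 CPM), and Tnnt2 overlaps across ages.

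The motor protein gene Myh6 did not follow the light chains at 12 months. Myh6 (chr14:54941921-54966927, minus strand) encodes alpha myosin heavy chain, the main motor of adult mouse atrium and ventricle. It was at 230, 192 and 153 CPM at 3 months, 340, 244 and 122 at 6 months, 214, 238 and 106 at 12 months and 457, 309 and 380 at 24 months. The lowest value of all 12 lungs was in 12-month mouse 3, whose Myl4 and Myl7 were the highest of their age, and Myh6 made up 16.4% of the reads of the 10 genes there, against 29.5% to 47.4% in the other 11. The log2 change was -0.04 ± 0.34 at 12 months (edgeR adjusted p = 0.936), and 0.24 without that mouse (adjusted p = 0.619). At 24 months it was 0.99 ± 0.35 (adjusted p = 0.0151), but 0.27 on library totals (adjusted p = 0.511) and, after the correction, -0.53 (adjusted p = 0.254), so its direction at 24 months turned with the scaling. Myh7, the near-identical beta heavy chain, lay at 18.9, 24.7 and 25.2 CPM at 3 months and at 13.7, 14.5 and 6.07 at 12 months, a log2 change of -1.0 ± 0.27 (edgeR adjusted p = 0.0281). The sources used here do not say how reads shared by the pair were counted, so the split between them is uncertain.

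Myl3, the essential light chain of ventricle and slow skeletal muscle, was low in 11 lungs and high in 1. Myl3 (chr9:110763646-110769804, plus strand) was at 2.56, 1.93 and 1.58 CPM at 3 months, 1.04, 2.57 and 1.44 at 6 months, 4.71, 2.21 and 3.09 at 12 months and 5.92, 3.71 and 34.4 at 24 months. On TMM library sizes the 24-month mice were above all 3-month mice, and mouse 3 was 9.27-fold above the lowest of its age, while on library totals 24-month mouse 2 (2.84 CPM) lay below 3-month mouse 1 (2.97). The log2 change at 24 months was 2.82 ± 0.65 (edgeR adjusted p = 0.000837), and 1.24 (adjusted p = 0.00831) without 24-month mouse 3. With the correction it was 2.5 (adjusted p = 0.00911) and on library totals 1.84 (adjusted p = 0.00675). In the same mouse 15 genes of skeletal muscle summed to 365 CPM, against 13.1 to 38.4 in the other 11, with Acta1, the skeletal alpha-actin, at 196 CPM against at most 1.82. The part of skeletal muscle in the Myl3 value was not tested.

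Of the 2 calcium handling genes, only Ryr2 was called lower at 24 months, and only without the correction for GC content and length. Sln (chr9:53850251-53853844, plus strand) encodes sarcolipin, a small inhibitor of the calcium pump of atrial and skeletal muscle. It was at 11.9, 5.36 and 3.89 CPM at 3 months, 12.0, 8.06 and 4.62 at 6 months, 13.7, 14.7 and 14.0 at 12 months and 10.5, 5.23 and 6.44 at 24 months. The 12-month mice differed from each other by only 1.07-fold and were all above the 3-month mice, yet the log2 change of 1.00 ± 0.39 did not pass the edgeR test over all genes (adjusted p = 0.0897), and was 0.36 with the correction (adjusted p = 0.488). It passed, at 1.01 (adjusted p = 0.0488), when the 24-month libraries were left out of the fit. At 24 months the change was 0.06 ± 0.40 (adjusted p = 0.891), -0.20 with the correction and -0.64 on library totals.

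Ryr2 (chr13:11553103-12106945, minus strand) encodes the channel that releases calcium from the sarcoplasmic reticulum, and its 16813 bases of exon make it the longest of the 10. It was at 9.38, 11.5 and 10.2 CPM at 3 months, 20.2, 16.5 and 9.11 at 6 months, 10.6, 11.6 and 17.4 at 12 months and 5.18, 2.25 and 1.76 at 24 months. The 24-month mice were below all others. The log2 change was 0.35 ± 0.34 at 12 months (edgeR adjusted p = 0.467) and -1.73 ± 0.37 at 24 months (adjusted p = 0.000495). With the correction for GC content and length these became 1.04 (adjusted p = 0.0288) and -0.03 (adjusted p = 0.952), and on library totals the change at 24 months was -2.41 (adjusted p = 0.000147). The fall at 24 months was thus called only without the correction, and the rise at 12 months only with it.

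Counted over the 10 genes, 0 were called at 6 months, where the edgeR test called 0% of the 16042 genes. At an unadjusted p under 0.05, 0 of the 10 and 267 of all genes passed, and DESeq2 and limma voom also called 0 of the 10. The log2 changes ran from -0.27 for Myl3 to 0.77 for Nppa with a median of 0.31, and the CPM of the 2 ages overlapped for all 10, while 5.58% of all genes were higher and 5.28% lower without overlap. With the correction 0 of the 10 and 0.00623% of all genes (1 gene, higher) were called. At 12 months 5 rose (Myl4, Myl7, Nppa, Tnni3 and Actc1) and 0 fell, where 15.2% of all genes were called, 6.3% higher and 8.87% lower. The median log2 change was 1.01 for the 10 and -0.02 for all genes, and 9 of the 10 were above 0. The 3 mice of 12 months were all above the 3 of 3 months for 6 of the 10, the same 5 and Sln, against 24% of all genes, and all below for 0, against 20.4%. On library totals 2 rose (Myl4 and Nppa) and 0 fell, where 3.04% of all genes were higher and 7.11% lower. There the same 6 stood above without overlap, against 18.4% of all genes, and 0 below, against 26.9%. The count of 5 rested on the mice used: it was 0 without 3-month mouse 2 or 3-month mouse 3, 2, 1 and 2 without 12-month mouse 1, 2 and 3, and 6 without 3-month mouse 1. Calls over all genes moved as well, from 1010 higher and 1423 lower in the main fit. They were 72 and 230 without 3-month mouse 2, and 132 and 353 without 3-month mouse 3. Without 12-month mouse 1, 2 and 3 they were 425 and 632, 245 and 506, and 1199 and 2227. Without 3-month mouse 1 they were 1079 and 1310. Over those fits the log2 change stayed between 1.24 and 1.79 for Myl4, 1.13 and 1.89 for Myl7, 1.68 and 2.92 for Nppa, 0.84 and 1.51 for Tnni3 and 0.80 and 1.36 for Actc1. With the correction 3 rose (Myl4, Actc1 and Ryr2) and 0 fell, where 17.5% of all genes were called, 9.54% higher and 7.96% lower.

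At 24 months 7 rose (the same 5, Myh6 and Myl3), and 1 fell (Ryr2), where 82.8% of all genes were called, 38.2% higher and 44.6% lower. The median log2 change of the 10 was 1.28, against -0.29 over all genes. Other gene lists moved as well: the median was 1.33 for the 7 lung marker genes, of which 5 were called higher and 1 lower. It was 1.27 for skeletal muscle, 1.10 for adipose, 0.66 for smooth muscle and 0.47 for the other heart muscle genes. The 10 thus did not stand apart from the lung genes on this scale. On library totals 3 of the 10 rose (Myl4, Actc1 and Myl3), where 26.4% of all genes were higher, and 1 fell, where 53.2% were lower. The median of the 10 was then 0.54 against -1.0. With the correction 3 rose, again Myl4, Actc1 and Myl3, and 0 fell, where 58.6% of all genes were called, 30.2% higher and 28.3% lower. The median was then 0.41 for the 10, against -0.01, and -0.36 for the 7 lung genes, of which 0 were called higher and 3 lower. It was 0.22 for skeletal muscle, 0.72 for adipose, -0.04 for smooth muscle and 0.49 for the other heart muscle genes. On TMM library sizes the values of the 2 ages did not overlap for 6 genes that were higher at 24 months (Myl4, Myl7, Nppa, Actc1, Myh6 and Myl3), against 38.6% of all genes, and for Ryr2, which was lower, against 45.8%. On library totals only Actc1 stayed apart above (26.6% of all genes) and Ryr2 below (54.5%). For any difference among the 4 ages 8 of 10 passed, all but Tnnt2 and Sln, while 84.6% of all genes did, and with the correction 4 of 10 against 58.5%. The comparisons share the 3-month mice, so their folds are not independent of each other. The authors' deposited table gave adjusted p under 0.05 to 0, 6 and 8 of the 10 at 6, 12 and 24 months, and the 6 were the same 5 and Sln (log2 change 0.83). The share of all genes under 0.05 in the authors' comparisons was not counted, so these counts have no share to be set against. They come from the same libraries and are no independent result.

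**Figure D2:**
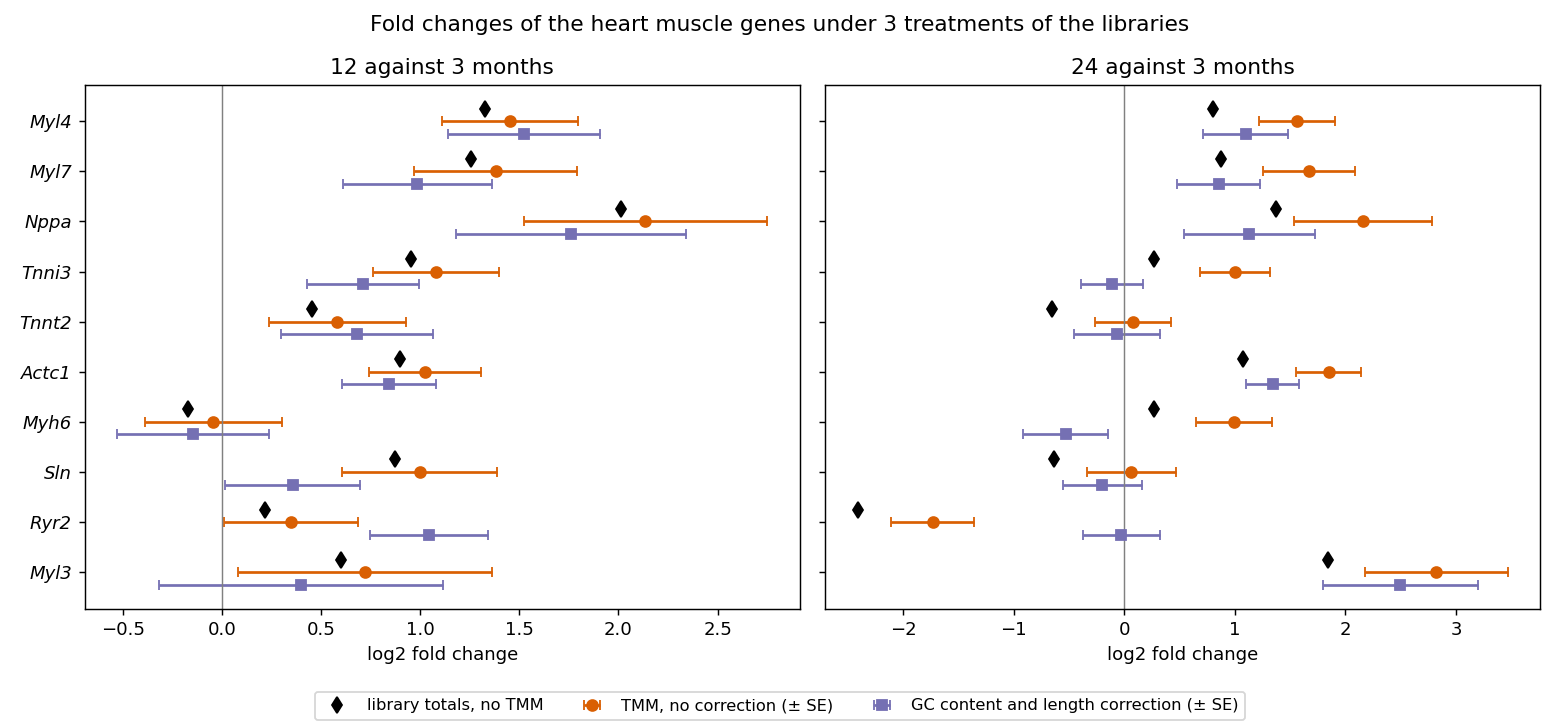
Log2 fold change of each gene at 12 months (left) and 24 months (right) against 3 months, with 3 mice an age, after TMM scaling (circles, ± SE), with a correction for GC content and gene length (squares, ± SE) and on library totals (diamonds). At 12 months the treatments lie close for Myl4 and Actc1, whereas at 24 months Tnni3 runs from 1.00 to -0.11 and Ryr2 from -2.41 to -0.03.

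Within each age, mouse differences were shared by most of the 10 genes. After the mean of each age was taken off the log2 CPM (prior count 2), the 45 pairs of genes had Pearson r from -0.39 to 0.98 with a median of 0.69 over the 12 libraries, which the pairs share together with their depth and base composition. Tnni3 had the highest median r with the other 9 (0.90), then Myl4 (0.89), Tnnt2 (0.87), Myl7 (0.86), Actc1 and Sln (both 0.82) and Nppa (0.75). Myh6 (0.64), Ryr2 (0.34) and Myl3 (0.24) moved less closely with the rest. The 7 closest genes, grouped after their values were seen, were all above their age mean in 3-month mouse 1, in 6-month mice 1 and 2 and in 24-month mouse 1, and all below it in 3-month mice 2 and 3, 6-month mouse 3 and 24-month mouse 2. At 12 months the genes went both ways in each mouse: the deviations ran from -0.85 to 0.55 in mouse 1, from -0.51 to 0.76 in mouse 2 and from -0.72 to 0.43 in mouse 3, with medians of -0.05, -0.03 and 0.09.

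**Figure D3:**
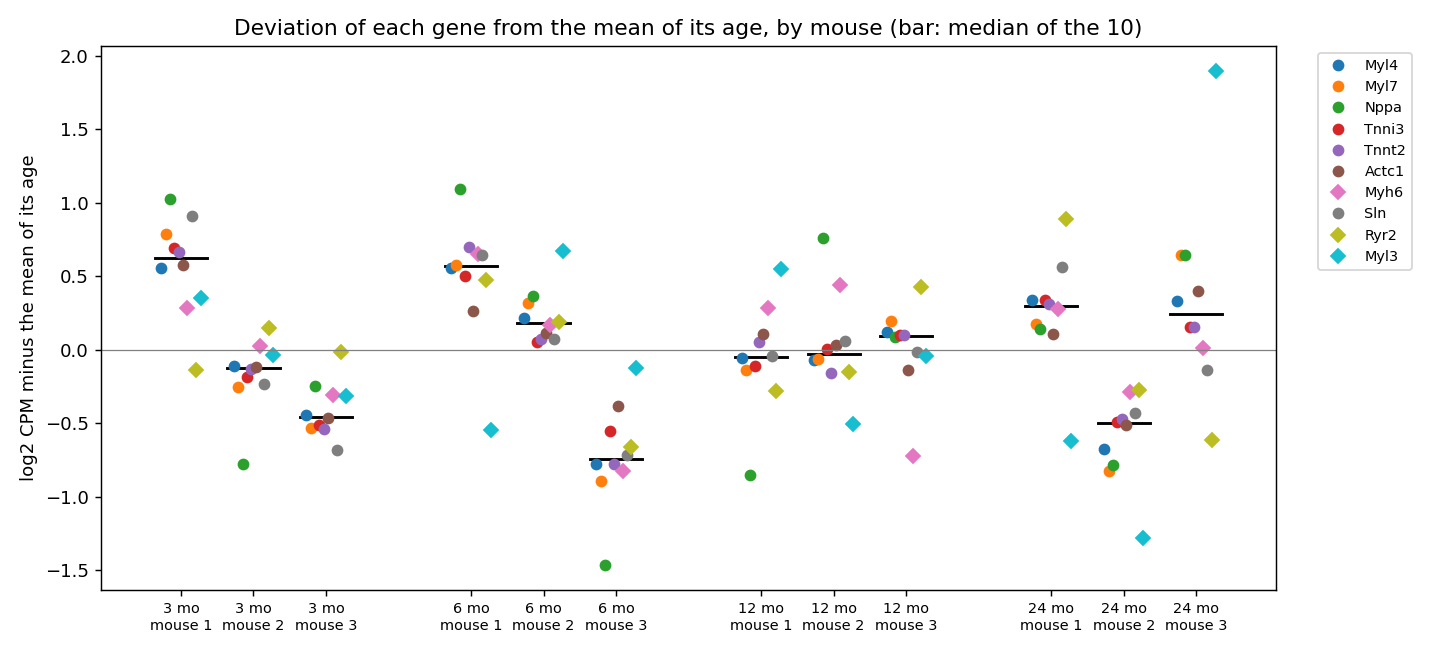
Deviation of the log2 CPM of each of the 10 genes from the mean of its age, in each mouse, with diamonds for Myh6, Ryr2 and Myl3, circles for the others and a bar at the median of the 10. The circles lie on one side of 0 in most 3-, 6- and 24-month mice, with medians of 0.62 in 3-month mouse 1 and -0.74 in 6-month mouse 3.

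The spread between mice of 1 age was large against other genes. The residual SD of log2 CPM was 0.65 for Myl7, larger than that of 94.4% of the genes tested, 0.97 for Nppa (99.1%) and 0.39 for Actc1 (68.3%), against a median of 0.32. While the level of Myl7 ran from 21.8 to 161 CPM, the read ratio of Myl4 to Myl7 stayed between -0.34 and 0.34 on the log2 scale in all 12 lungs, and 24-month mouse 3 gave the lowest. Other ratios to Myl7 moved with age: that of Tnnt2 lay from 0.66 to 0.91 in 3-month mice, from -0.14 to 0.14 in 12-month mice and from -1.25 to -0.41 in 24-month mice. For Ryr2 the corresponding ranges were -2.57 to -1.13, -2.97 to -2.58 and -6.52 to -4.49. For Myh6 it was 2.05 to 2.83 at 3 months, 1.37, 1.45 and 0.03 in the 3 mice of 12 months, and 1.24 to 2.41 at 24 months. These ratios carry no correction, and the base composition of the 24-month libraries moves with them. In the fits, the log2 change of Ryr2 minus that of Myl7 at 24 months was -3.41 without and -0.88 with the correction for GC content and length, and that of Tnnt2 minus Myl7 was -1.59 and -0.92. At 12 months the difference of Ryr2 from Myl7 was -1.03 without and 0.06 with it, and that of Myh6 was -1.43 and -1.13.

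The genes whose deviations were most like the mean of the 10 were mostly genes of heart muscle as well. Of 14551 other genes with a mean of at least 1 CPM, 0.344% had r above 0.8, and the median r was -0.04. The 10 highest were Mybphl, an atrial myosin-binding protein (0.98), Mb, myoglobin (0.97), Actn2, the actinin of the Z disc (0.95), Tnnc1, cardiac troponin C (0.95), Cdc45 (0.94), Tcap, the titin cap (0.94), Dhrs7c (0.94), Tnfrsf13c (0.93), Hfe2 (0.92) and Ldb3 of the Z disc (0.92). Tnfrsf13c is a receptor of B cells and Cdc45 a DNA replication factor, so likeness over 12 libraries does not select muscle alone. The list of 40 other heart muscle genes held 6 of these 10, and 5 of the 10 remained among the 10 highest over the 9 libraries of 3, 6 and 12 months.

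**Figure D4:**
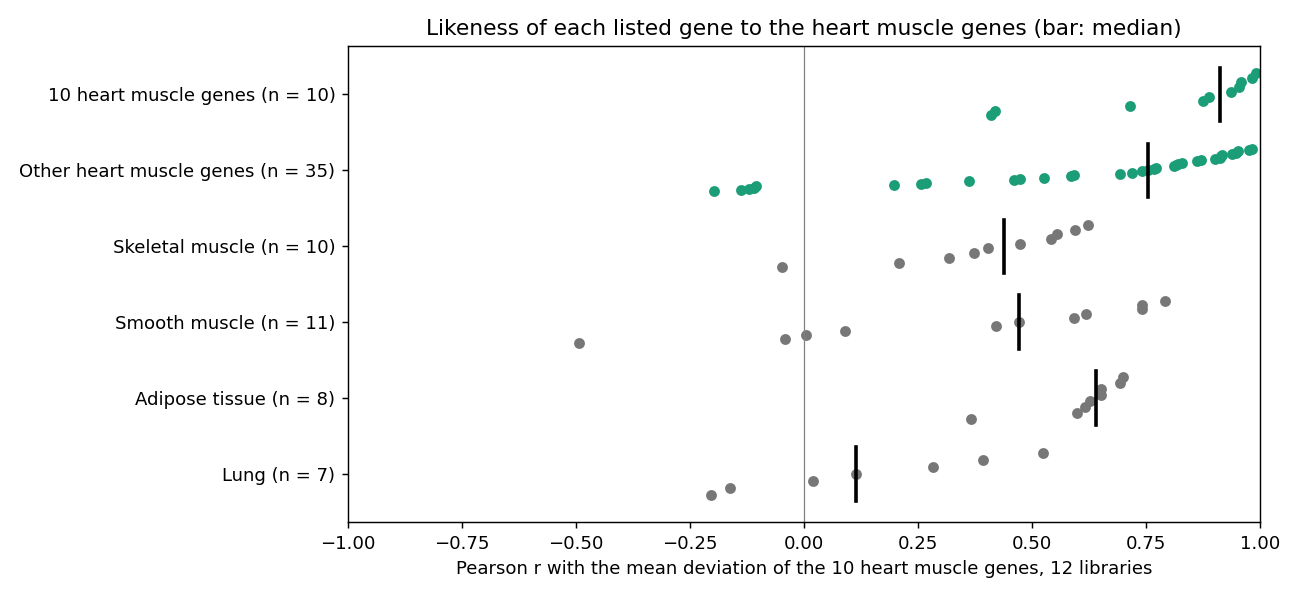
Pearson r over 12 libraries between each gene's deviation from its age mean and the mean deviation of the 10 heart muscle genes, 1 point per gene, by gene list; the 10 genes are part of the mean they are set against. The median is 0.91 for the 10 genes, 0.75 for 35 other heart muscle genes and 0.11 for 7 lung genes.

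By list, 15 of 35 other heart muscle genes had r above 0.8 (median 0.75), and 0 of the skeletal muscle (10 genes, median 0.44), smooth muscle (11, 0.47), adipose (8, 0.64) and lung genes (7, 0.11) did. Over the 9 libraries of 3, 6 and 12 months 23 of the 35 other heart muscle genes were above 0.8 (median 0.85), and so were 1 skeletal muscle gene, Ryr1, and 3 smooth muscle genes, Acta2, Cnn1 and Des, where 1.83% of all other genes were. These counts are a description, since the libraries are shared. Adipose genes summed to 341 CPM in 6-month mouse 1, where the heart muscle genes were high for their age, and to 56.4 in 6-month mouse 3, where they were low. The adipose sum ran from 80.6 to 108 CPM in the 3-month mice, and was above all of them in the 12-month mice (115 to 265) and the 24-month mice (159 to 271). At 12 months 8 of the 8 adipose genes had a log2 change above 0, with a median of 1.52, against 1.01 for the 10 heart muscle genes. The edgeR test called 4 of the 8 higher, where 6.3% of all genes were. With the correction their median was 1.26 and 2 were called higher, where 9.54% of all genes were. The adipose genes did not move as one at 24 months: 5 of the 8 had a log2 change above 0. The edgeR test called 3 of the 8 higher (Plin1, Cfd and Cidea), where 38.2% of all genes were. With the correction 8 of the 8 were above 0 and 3 were called higher, where 30.2% of all genes were. The deposited FPKM of Adipoq averaged 7.65 at 3 months, 16.3 at 6 months, 18.3 at 12 months and 3.48 at 24 months. FPKM is on library totals, where the median log2 change of all genes at 24 months was -1.0. The smooth muscle sum ran from 846 to 1095 CPM in the 3-month mice, and the 12-month (1037 to 1148) and 24-month mice (1502 to 2507) overlapped and exceeded that range, respectively. At 24 months edgeR called 6 of the 11 smooth muscle genes higher and 4 lower, where 38.2% and 44.6% of all genes were. Myh11 was among the lower ones, with a mean FPKM of 26.9 at 3 months and 3.38 at 24 months. With the correction 5 were higher and 2 lower, where 30.2% and 28.3% of all genes were, and their median log2 change was -0.04. The part of other tissue in the heart muscle values was not tested.

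Of the 40 other heart muscle genes 35 passed the filter. At 12 months 11 of them rose and 1, Myh7, fell, with a median log2 change of 0.99, where 6.3% of all genes rose and 8.87% fell, and at 6 months 0 were called by edgeR with a median of 0.31. Actn2 went from 11.9, 7.56 and 6.89 CPM at 3 months to 22.5, 26.1 and 23.7 at 12 months, a log2 change of 1.45 ± 0.36 (edgeR adjusted p = 0.0191), which kept its call with the correction (1.26, adjusted p = 0.0195). Mybpc3, cardiac myosin-binding protein C, changed by 1.41 ± 0.44 (adjusted p = 0.0444) and Tnnc1 by 1.02 ± 0.33 (adjusted p = 0.0471). With the correction these were 1.20 (adjusted p = 0.07) and 0.61 (adjusted p = 0.137). Pln, which encodes the calcium pump inhibitor phospholamban, was at 0.47 ± 0.37 (adjusted p = 0.371) and Ttn, titin, at 0.52 ± 0.34 (adjusted p = 0.276). With the correction 6 of the 35 rose and 1 fell, where 9.54% and 7.96% of all genes did.

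At 24 months 15 of the 35 rose and 9 fell, where 38.2% and 44.6% of all genes did. With the correction 13 rose and 2 fell, where 30.2% and 28.3% did. Ttn, whose transcript is very long like that of Ryr2, was at 15.1, 19.0 and 14.8 CPM at 3 months and 5.51, 2.62 and 3.16 at 24 months. Its log2 change of -2.11 ± 0.38 (edgeR adjusted p = 8.99e-05) was -0.05 with the correction (adjusted p = 0.883). Pln turned from -1.34 (adjusted p = 0.00631) to 0.92 (adjusted p = 0.0462), and Actn2 stayed higher (3.02, and 1.51 with the correction, adjusted p = 0.0013). Nebl, Jph2 and Gata4 had the smallest p for age in the list beside Actn2. Nebl, which encodes a nebulin-like protein of the Z disc and stood at 132 to 166 CPM at 3 months, changed by -3.14 at 24 months and by -0.20 with the correction (adjusted p = 0.31).

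Markers that would place the muscle were sparse. Myl2, the regulatory light chain of ventricle, had 0 reads in each 3-month library and 1 to 6 reads in each of the other 9, where 3 reads are 0.141 to 0.204 CPM on plain totals, and its FPKM reached at most 0.412. Bmp10, a gene of right atrial muscle, had 0 reads in all 12 libraries, which allows up to the same 0.141 to 0.204 CPM by counting error alone. Nppb, a second natriuretic peptide gene, had 0 to 13 reads. Nkx2-5, a heart muscle transcription factor, was at 0.0439 to 0.248 CPM at 3 months and 1.23, 1.82 and 4.68 at 24 months, a log2 change of 4.31 ± 0.75 (edgeR adjusted p = 6.82e-05) that was 2.06 with the correction (adjusted p = 0.0127). Gja5, the connexin of atrium and arterial endothelium, stood at 16.6 to 52.3 CPM over all ages and changed by -0.04 at 12 months (adjusted p = 0.938). Of 15 skeletal muscle genes 10 passed the filter, and at 12 months 0 of them were called by edgeR, where 6.3% of all genes rose, with 0.40 as their median log2 change. At 24 months 6 of these 10 rose, where 38.2% of all genes did, and 3 with the correction, where 30.2% did.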

How the data were processed

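The submitters' processing notes name TopHat, STAR 2.5, HTSeq 0.6.1 and mm10. The sources used here do not give their roles, the annotation, strand use or the handling of shared reads. Per the file headers, the authors deposited reads per gene (counts) and FPKM for each mouse, and log2 fold changes with adjusted p-values for pairs of ages. All 235411 FPKM values above 0 were recomputed from counts, lengths and totals to within 1e-06. The main test was edgeR 4.0.16 (R 4.3.3): filterByExpr, TMM, robust quasi-likelihood F test on all 12 libraries (8 residual degrees of freedom), Benjamini-Hochberg over 16042 genes, threshold 0.05. The test was checked on simulated data. GC content and length were corrected by an offset from mgcv 1.9.3 smooths per library. DESeq2 1.42.0 and limma 3.58.1 were alternatives. Promoter windows came from RefSeq tables (GRCm38.p6). The 10 genes and the lists were chosen with earlier results of these data known. Named genes were the 10, up to 4 of each list with the smallest p and a mean CPM of at least 1, fixed list genes (1 is not reported here), and the 10 most alike. Bmp10, 2 genes that overlap a member and the group of 7 were singled out after their values were seen. Per the labels, each mouse was analysed independently, and p-values measure the spread between these mice. The labels do not say what the mouse numbers mark, and the main test did not use them. Of 18 same-numbered pairs of libraries 4 had r above 0.1, and of 36 other-numbered pairs 11 did. So few pairs cannot settle whether a number marks a shared batch or day.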

Additional observations from a re-analysis of the deposited data

How the results depend on the processing

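Over the alternatives tried, 465 values of single genes kept direction and side of the threshold, 47 lost the call, 7 gained it and 21 changed sign. For any difference among ages 8 genes were called: 4 with the correction for GC content and length, 5 without the 24-month libraries, 3 without them on totals or with the correction, and 7 to 9 leaving out 1 mouse. Of all genes 84.6% were called in the main fit and 58.5% with the correction. For the other fits of any difference the share of all genes is not given here, so their counts cannot be set against it. At 12 months the 5 became 3 with no filter on low counts, 3 with the correction, also without the 24-month libraries, 2 on library totals, and 0 to 6 leaving out 1 mouse. On library totals without the 24-month libraries they stayed 5. Over all genes the main fit called 1010 higher and 1423 lower at 12 months. These were 802 and 1395 with no filter, and 1531 and 1277 with the correction. With the correction and without the 24-month libraries they were 2756 and 1956. On library totals they were 487 and 1141, and 2039 and 3683 when the 24-month libraries were also left out. At 24 months the 8 became 3 with the correction, 4 on library totals and 6 to 8 leaving out 1 mouse. Over all genes 6128 were higher and 7149 lower in the main fit, 4850 and 4545 with the correction and 4230 and 8542 on library totals. Leaving out 1 mouse of 3 or 24 months, 5363 to 6144 were higher and 6858 to 7466 lower. With the replicate number as a block, 9, 0, 6 and 8 genes were called for any age, 6, 12 and 24 months. Over all genes that fit called 0 higher and 0 lower at 6 months, 602 and 985 at 12 months, and 6065 and 7065 at 24 months. For any age its count over all genes is not given here. Block and correction together gave 4 at 24 months, where 4724 of all genes were higher and 4432 lower. The replicate numbers are no pairing. Sign changes at 24 months with the correction were Tnni3 -0.11, Tnnt2 -0.067, Myh6 -0.53 and Sln -0.20. With the replicate block added they were -0.11, -0.027, -0.56 and -0.15. On library totals Tnnt2 was at -0.66 and Sln at -0.64. Leaving out 1 mouse, Sln ran from -0.46 to 0.46 and Tnnt2 from -0.39 to 0.28 at 24 months, Myh6 from -0.26 to 0.24 at 12 months, and Sln from -0.15 to 0.84, Tnnt2 from -0.12 to 0.70 and Myh6 from -0.051 to 0.62 at 6 months. The cause was not tested in any of these. Of all genes called at 24 months 46.2% were higher with TMM and 33.1% on totals; at 12 months 41.5%, 29.9% on totals and 54.5% with the correction. Low read counts limit Nppa (14 to 176 reads a library), Myl3 (19 to 294) and, at 24 months, Ryr2 (63, 31 and 15), and 3 mice an age limit all calls.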
